A study of Mus musculus with 9 samples.

Results

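The cyclin-dependent kinase inhibitors are the 7 genes Cdkn1a, Cdkn1b, Cdkn1c, Cdkn2a, Cdkn2b, Cdkn2c and Cdkn2d, and they were taken by symbol from a table of 52183 mouse genes. All 7 were present once. Transcripts were measured in endothelial cells of the bone marrow, sorted by flow cytometry from long bones, the cells having been marked in the living mouse with an antibody to the endothelial junction protein VE-cadherin. The 9 libraries form 3 groups of 3: mice aged 18 months that are labelled as Thbs1 knockouts, control mice aged 18 months, and control mice aged 3 months. Thbs1 encodes thrombospondin-1, a secreted matrix protein. The labels do not give the strain, the kind of Thbs1 allele or whether the libraries of a group are different mice. The p-values therefore cover the spread among these libraries, which may be technical.

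Cyclin-dependent kinases drive the cell cycle when bound to cyclins, and these 7 genes encode the proteins that hold them back. The Cip/Kip family (p21 from Cdkn1a, p27 from Cdkn1b and p57 from Cdkn1c) binds cyclin-kinase complexes, and the INK4 family (p16 from Cdkn2a, p15 from Cdkn2b, p18 from Cdkn2c and p19 from Cdkn2d) binds the kinases Cdk4 and Cdk6. p16 is widely used as a marker of cellular senescence, a lasting exit from the cell cycle, while p21 is induced by the tumour suppressor p53 and by many acute stresses.

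Cdkn1a was the one member for which a difference between groups passed the test. It was higher in labelled knockout libraries than in the aged controls, and lower in aged than in young controls. The difference with age did not pass in 6 of the 9 fits that left out a library. For the other tested members, changes within their intervals remain possible. Cdkn1c was the second most abundant member, Cdkn2d followed, and Cdkn2b, Cdkn2c and Cdkn1b were low. Cdkn2a was at the edge of detection in every group.

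Values are FPKM, read fragments scaled to gene length and to library depth, so levels may be compared between genes. The depth recovered from the values ran from 22140000 to 30420000 fragments per library, with 27250000 to 30420000 in labelled knockout libraries, 22140000 to 24580000 in the aged controls and 22860000 to 23860000 in the young controls. Depth and labelled genotype therefore cannot be told apart. Tests were run as limma on log2(FPKM + 1), a scale that understates the change of low genes, on the 11796 genes whose mean reached 1 FPKM. Every log2 fold change and interval given is a difference on this scale. A gene is called when its Benjamini-Hochberg adjusted p is under 0.05. For gene lists, counts at an unadjusted limma p under 0.05 are also given. The share of all tested genes at that p was not computed, so such counts do not by themselves show an excess. The 9 pan-endothelial markers, among them Cdh5 and Pecam1, were all tested and summed to 1432 to 1613 FPKM in labelled knockout libraries, 1318 to 1553 FPKM in aged controls and 1542 to 1604 FPKM in young controls. Of these 9, Erg, an endothelial transcription factor, was called lower with age (9.28 ± 1.96 FPKM in aged and 14.4 ± 0.80 FPKM in young controls, SD, n = 3 each, limma adjusted p = 0.0447, without overlap), a call kept in 3 of the 9 fits that left out a library and in 6 of 11 other settings. Among all tested genes 2.8% were called lower with age. The part of the Erg difference in the Cdkn1a values was not tested. Ptprc, the pan-leukocyte gene, stood at 0.03 to 0.13 FPKM. Thbs1, the targeted gene, went against its label, with 25.63, 19.45 and 19.84 FPKM in labelled knockout libraries, 0.67, 0.82 and 1.17 FPKM in aged controls, and 4.55, 3.89 and 4.18 FPKM in young controls. Whether the counted transcript is altered cannot be read from a gene total, and every direction given for these libraries is a direction for libraries carrying that label.

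The promoters of Cdkn1a are shown because it was the one member called, and those of Cdkn2a because its single value adds up transcripts from separate starts. RefSeq promoter sequences (GRCm38.p6) were found for 6 of the 7 members, and 250 bases before each start are given, 5′ to 3′ on the gene's strand. Both Cdkn1a starts lie on the plus strand, 2790 bases apart, with windows at chr17:29090729-29090978 and chr17:29093519-29093768. In the upstream window the capitals mark a p53 response element. In the downstream window the capitals mark GGGCGG, the core of the Sp1 box, and TATAA, the core of the TATA box.

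Cdkn1a, upstream start: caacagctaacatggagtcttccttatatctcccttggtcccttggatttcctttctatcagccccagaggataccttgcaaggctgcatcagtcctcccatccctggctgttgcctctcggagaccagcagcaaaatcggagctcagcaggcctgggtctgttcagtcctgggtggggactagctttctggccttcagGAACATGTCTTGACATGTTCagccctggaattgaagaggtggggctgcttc
Cdkn1a, downstream start: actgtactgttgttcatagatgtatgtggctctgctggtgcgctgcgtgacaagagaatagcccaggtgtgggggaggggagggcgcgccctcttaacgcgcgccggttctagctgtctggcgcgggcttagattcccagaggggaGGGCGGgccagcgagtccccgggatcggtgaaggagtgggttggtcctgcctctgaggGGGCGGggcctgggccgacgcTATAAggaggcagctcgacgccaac

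The element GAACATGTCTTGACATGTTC began 51 bases before the upstream start and 2841 bases before the downstream one. A p53 response element was counted when 20 adjacent bases matched the named p53 consensus with at most 1 mismatch and none in the fixed C and G of either core, a pattern that reads the same on both strands. Of 32851 mouse promoter windows of the same length, 19 held one (0.0578%). TATAA was in 22.8% of the windows and GGGCGG in 32.7%, on either strand. The upstream window also held TATAA on the other strand, 227 bases before the start, and no match overlaps another. Also searched on both strands were CCAAT (33.8% of windows), found before Cdkn1b and Cdkn2d, and TGACGTCA, the cyclic AMP response element (1.55% of windows), found before Cdkn2b. These are matches of letters and not measured binding.

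Cdkn2a has its starts 12427 bases apart on the minus strand. The upstream start (window chr4:89294620-89294869) makes the transcript of the Arf protein, which acts through p53, and the downstream start (window chr4:89282193-89282442) makes that of p16. Capitals again mark GGGCGG.

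Cdkn2a, Arf start: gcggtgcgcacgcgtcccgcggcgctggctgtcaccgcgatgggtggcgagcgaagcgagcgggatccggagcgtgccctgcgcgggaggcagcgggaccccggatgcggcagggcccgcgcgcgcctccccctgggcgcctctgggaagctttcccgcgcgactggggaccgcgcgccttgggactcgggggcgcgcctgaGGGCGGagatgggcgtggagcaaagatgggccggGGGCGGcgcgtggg
Cdkn2a, p16 start: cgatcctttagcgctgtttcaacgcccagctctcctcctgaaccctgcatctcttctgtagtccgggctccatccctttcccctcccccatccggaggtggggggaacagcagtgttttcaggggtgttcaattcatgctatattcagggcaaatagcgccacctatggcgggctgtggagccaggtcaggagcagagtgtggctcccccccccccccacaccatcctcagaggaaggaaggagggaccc

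Both transcripts share exons, so the deposited value of Cdkn2a does not separate p16 from Arf. Neither Cdkn2a window held the p53 response element or TATAA as defined above.

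Cdkn1a (ENSMUSG00000023067, GRCm38 chromosome 17, 29090976 to 29100727, plus strand) was expressed at a high level, above 98.7% of the tested genes by its mean over the 9 libraries. It stood at 361.14, 330.80 and 306.82 FPKM in labelled knockout libraries, 203.12, 163.64 and 163.88 FPKM in aged controls, and 256.82, 262.57 and 267.30 FPKM in young controls. Every library labelled knockout was above every young control, and every young control was above every aged control, so no pair of groups overlapped. An antisense gene, ENSMUSG00000117050, shares 273 of its 3553 exon bases. Behind these values were 13326 to 35953 recovered fragments per library. The group means were 332.9 ± 27.2 FPKM in labelled knockout libraries, 176.9 ± 22.7 FPKM in aged controls and 262.2 ± 5.25 FPKM in young controls (SD, n = 3 each).

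In the comparison with the aged controls, Cdkn1a was 1.88 times as high in labelled knockout libraries (log2 fold change 0.91 ± 0.11 SE, 95% interval 0.67 to 1.15, limma adjusted p = 0.00298). The call held without each of the 9 libraries in turn, with a log2 fold change of 0.85 to 1.02 and a limma adjusted p of 0.00175 to 0.0145. In this comparison 4.79% of all tested genes were called, 2.78% higher and 2.01% lower. Of the 6 tested members 1 was called higher and none lower. Groups failed to overlap for 1 of 7 members, against 23.2% of tested genes.

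Between the aged and the young controls, Cdkn1a was lower in the aged ones, at 0.675 times the young mean (log2 fold change -0.57 ± 0.11 SE, 95% interval -0.81 to -0.33, limma adjusted p = 0.0355). This call did not hold in 6 of the 9 fits that left out a library. It was lost without young control 1, 2 or 3 (limma adjusted p = 0.141, 0.133 and 0.117), without aged control 2 or 3 (0.054 and 0.0639) and without labelled knockout 3 (0.0526), as well as without the filter on low values (0.111), while the log2 fold change stayed between -0.68 and -0.52. Among all tested genes 3.99% were called with age, 1.2% higher and 2.8% lower, and of the 6 tested members 1 was called, lower. The genes called lower numbered 330 in the main fit, but 5, 28 and 9 without young control 1, 2 or 3 in turn. Groups did not overlap for 35.7% of genes and for 1 of the 7 members. The aged controls enter this comparison and the one above, so the opposite directions of Cdkn1a are not independent of each other.

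Against the young controls, labelled knockout libraries had 1.27 times the Cdkn1a level without overlap, but the difference did not pass (log2 fold change 0.34 ± 0.11 SE, 95% interval 0.10 to 0.58, limma adjusted p = 0.349). With array weights it passed (0.28, limma adjusted p = 0.0477, against 0.322 with voom). No member was called in this comparison, in which 0.212% of all genes were called, 0.0848% higher and 0.127% lower, and 22.4% showed no overlap. Cdkn1a was the single member with an unadjusted limma p under 0.05, and voom on recovered fragments called no member either. By two-sided exact permutation, Cdkn1a had p = 0.1 in each pair of groups, the smallest that 3 against 3 libraries allow.

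**Figure D1:**
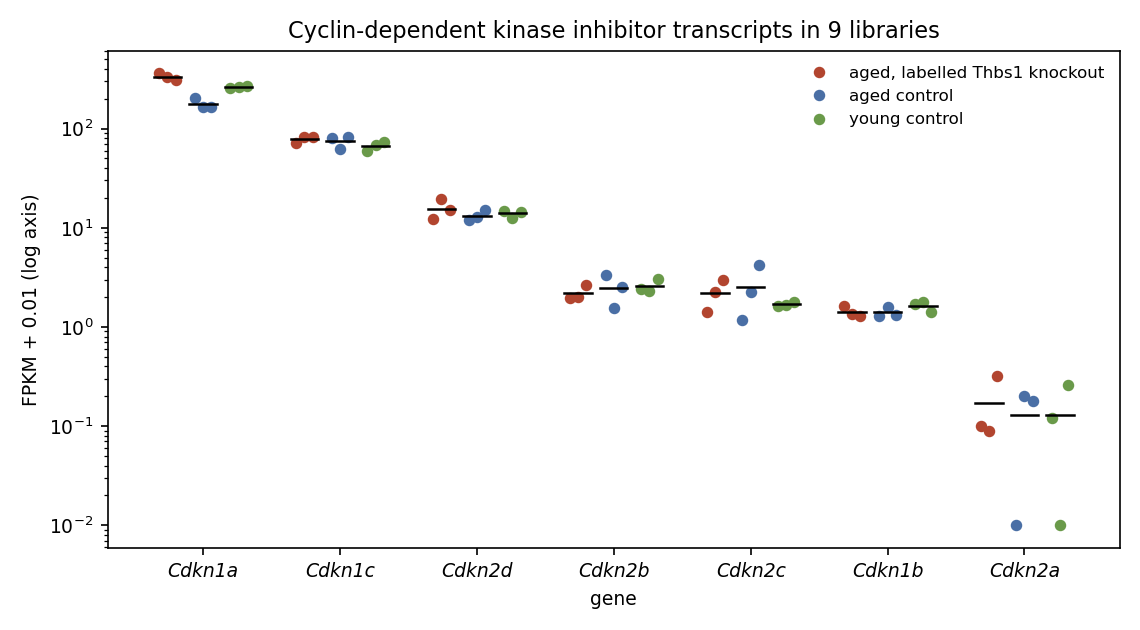
FPKM of the 7 cyclin-dependent kinase inhibitor genes (log axis, 0.01 added so that a 0 can be drawn) in libraries labelled knockout, aged controls and young controls. Points are libraries and bars are group means (n = 3). Cdkn1a is at 163.64 to 361.14 FPKM with no overlap between groups, and Cdkn2a is at 0 to 0.31 FPKM.

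The rest of the Cip/Kip family did not pass in any comparison. Cdkn1c (ENSMUSG00000037664, chromosome 7, 143458339 to 143461050, minus strand) encodes p57, which comes from an imprinted domain and holds stem cells in quiescence in several tissues. It was measured at 71.43, 81.61 and 82.80 FPKM in labelled knockout libraries, 80.68, 62.83 and 81.53 FPKM in aged controls and 60.13, 68.60 and 73.80 FPKM in young controls. The 3 groups overlapped, and their means were 78.6 ± 6.25, 75.0 ± 10.6 and 67.5 ± 6.90 FPKM in that order (SD, n = 3 each). The log2 fold change was 0.07 for labelled knockout over aged (95% interval -0.21 to 0.35, limma adjusted p = 0.76), 0.22 for labelled knockout over young (-0.06 to 0.50, adjusted p = 0.647) and 0.15 for aged over young (-0.14 to 0.43, adjusted p = 0.482). An antisense gene, Gm44732, shares 625 of the 2039 exon bases of Cdkn1c, and its own value was 0 to 0.14 FPKM.

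Cdkn1b (ENSMUSG00000003031, chromosome 6, 134920401 to 134925513, plus strand), whose protein p27 is controlled largely by its breakdown, had the lowest level of its family. It stood at 1.61, 1.35 and 1.28 FPKM in labelled knockout libraries, 1.27, 1.58 and 1.32 FPKM in aged controls and 1.69, 1.77 and 1.40 FPKM in young controls, from 128 to 205 fragments per library. The groups overlapped, and the intervals of the log2 fold change were -0.29 to 0.31 for labelled knockout over aged, -0.42 to 0.18 for labelled knockout over young and -0.43 to 0.17 for aged over young (limma adjusted p = 0.966, 0.825 and 0.556). The level of Cdkn1b was therefore far below that of Cdkn1a and Cdkn1c in each library.

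**Figure D2:**
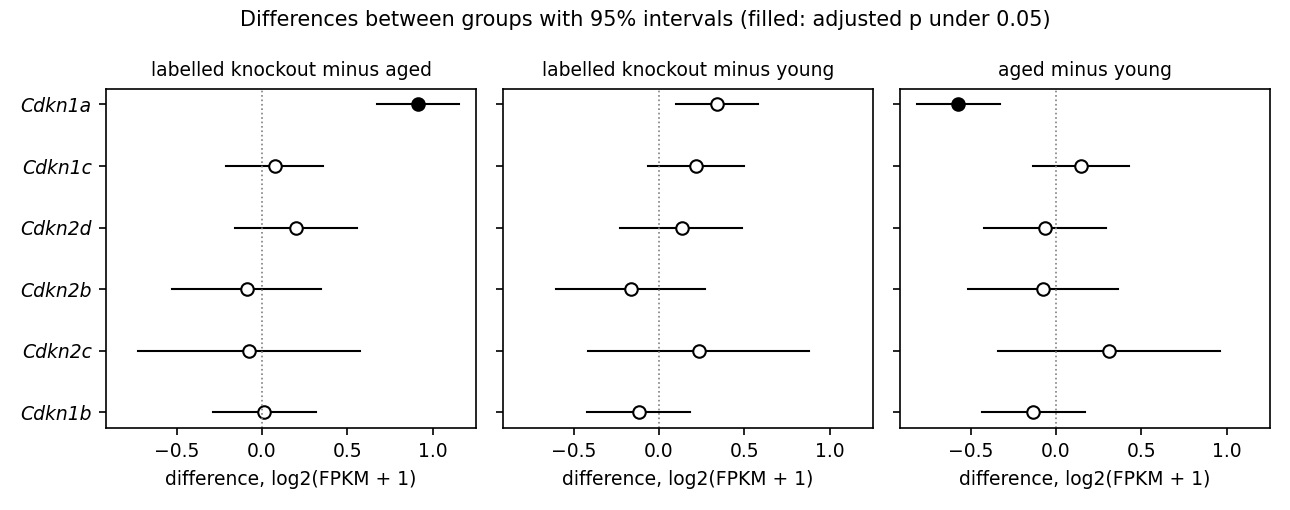
Differences in log2(FPKM + 1) for the 6 tested members in the 3 comparisons. Points are estimates, lines are 95% intervals from limma, and filled points passed an adjusted p of 0.05. Cdkn1a is filled for labelled knockout minus aged (0.91) and for aged minus young (-0.57), and the other 5 members have intervals that span 0 throughout.

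Of the INK4 family, Cdkn2d was the best measured. Cdkn2d (ENSMUSG00000096472, chromosome 9, 21288410 to 21291407, minus strand) stood at 12.16, 19.47 and 15.14 FPKM in labelled knockout libraries, 11.96, 12.70 and 15.22 FPKM in aged controls and 14.81, 12.42 and 14.58 FPKM in young controls. Labelled knockout 2 was the highest library and the remaining 8 lay between 11.96 and 15.22 FPKM. The log2 fold change was 0.20 for labelled knockout over aged (95% interval -0.16 to 0.56, limma adjusted p = 0.481) and -0.07 for aged over young (-0.42 to 0.29, adjusted p = 0.82).

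Cdkn2b and Cdkn2a are neighbours on chromosome 4, in the locus whose transcripts are known to accumulate with age in many mouse tissues. Cdkn2b (ENSMUSG00000073802, 89306299 to 89311039, minus strand), the transforming growth factor beta responsive member, was at 1.95, 1.98 and 2.64 FPKM in labelled knockout libraries, 3.34, 1.53 and 2.51 FPKM in aged controls and 2.42, 2.29 and 3.01 FPKM in young controls. The aged controls held both the highest and the lowest value, and the groups overlapped. The log2 fold change was -0.09 for labelled knockout over aged (95% interval -0.53 to 0.35, limma adjusted p = 0.818) and -0.08 for aged over young (-0.51 to 0.36, adjusted p = 0.833). These values rest on 49 to 103 fragments per library.

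Cdkn2a (ENSMUSG00000044303, 89274471 to 89294653, minus strand) fell below the filter and had no test beside the other members. It was listed at 0.09, 0.08 and 0.31 FPKM in labelled knockout libraries, 0, 0.19 and 0.17 FPKM in aged controls and 0.11, 0 and 0.25 FPKM in young controls. In recovered fragments these are 3, 3 and 10 in labelled knockout libraries, 0, 5 and 5 in aged controls, then 3, 0 and 7 in young controls, or 16, 10 and 10 summed over each group. A count of 0 allows up to 3 fragments, which is 0.116 FPKM in the aged and 0.112 FPKM in the young library listed at 0, for counting error only. No difference between groups was detectable at this depth: without the filter on low values the 95% interval of the log2(FPKM + 1) difference was -0.21 to 0.31 for labelled knockout over aged and -0.26 to 0.26 for aged over young (limma adjusted p = 1 for both). The added 1 is larger than every Cdkn2a value, so these intervals do not limit its fold change.

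Cdkn2c (ENSMUSG00000028551, chromosome 4, 109660876 to 109667189, minus strand), which encodes p18, varied widely within the groups aged 18 months. It stood at 1.42, 2.22 and 2.99 FPKM in labelled knockout libraries, 1.16, 2.24 and 4.21 FPKM in aged controls and 1.61, 1.66 and 1.76 FPKM in young controls. Aged control 3 was the highest library and aged control 1 the lowest, so the aged controls spanned the range of all 9. The log2 fold change was -0.08 for labelled knockout over aged (95% interval -0.72 to 0.57, limma adjusted p = 0.9) and 0.31 for aged over young (-0.34 to 0.96, adjusted p = 0.519). Without aged control 3 the aged over young value was -0.02. The ratio of mean FPKM over all libraries was 0.871 for labelled knockout over aged and 1.51 for aged over young.

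Neutrophil transcripts varied in the same libraries. The 7 neutrophil markers, led by S100a8, S100a9 and Ngp, summed to 31.82, 107.19 and 115.90 FPKM in labelled knockout libraries, 12.36, 80.50 and 271.80 FPKM in aged controls and 67.92, 5.60 and 139.27 FPKM in young controls. All 7 passed the filter and none was called in any comparison by limma or voom, nor had an unadjusted limma p under 0.05. Within labelled knockout libraries and within the aged controls, the order of the libraries was the same for Cdkn2c and for this sum, while the young controls differed widely in neutrophil transcripts and little in Cdkn2c. This order was not particular to neutrophil transcripts. The endothelial marker Tie1 had it too, at 128.94, 134.94 and 166.49 FPKM in labelled knockout libraries and 107.33, 151.94 and 191.39 FPKM in aged controls. So did the proliferation gene Rrm2, at 1.76, 2.74 and 4.92 FPKM, then 2.38, 2.90 and 6.61 FPKM. The part of neutrophil transcripts in the Cdkn2c values was not tested.

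**Figure D3:**
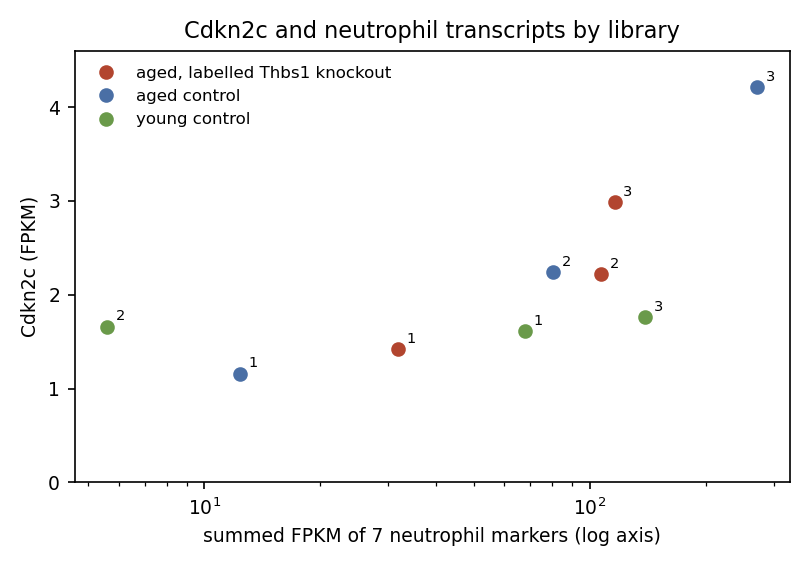
Cdkn2c (FPKM) against the summed FPKM of 7 neutrophil markers (log axis) in 9 libraries, numbered by replicate. Aged control 3 is highest on both axes, at 4.21 and 271.80 FPKM, and the 3 young controls lie between 1.61 and 1.76 FPKM of Cdkn2c.

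The order of the mean levels was Cdkn1a, Cdkn1c, Cdkn2d, Cdkn2b, Cdkn2c, Cdkn1b and Cdkn2a. The first 3 were separated from each other and from the rest in each library, as was Cdkn2a, whereas Cdkn2b, Cdkn2c and Cdkn1b overlapped (1.53 to 3.34, 1.16 to 4.21 and 1.27 to 1.77 FPKM). Cdkn1a made up 74.5% to 80.3% of the summed FPKM of the 7 genes in labelled knockout libraries, 61.0% to 67.4% in the aged controls and 73.8% to 76.1% in the young controls. In bulk samples, fewer cells that express a gene and less RNA per cell cannot be told apart.

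The genes most like each member were found by the root mean square difference between centred log2(FPKM + 1) profiles over the 9 libraries, among 6482 other named genes averaging 5 FPKM or more. Closest to Cdkn1a were Zfand2a, an arsenite-inducible zinc finger gene (0.09), Noct, a circadian and immediate early gene (0.09), and Atf3, a stress-induced transcription factor (0.11). The median over all genes compared was 0.42. Zfand2a stood at 18.13, 18.68 and 17.72 FPKM in labelled knockout libraries, 9.44, 9.23 and 8.37 FPKM in aged controls and 13.51, 12.84 and 14.14 FPKM in young controls. Its order of groups was that of Cdkn1a, with no overlap. Zfand2a was picked for likeness to Cdkn1a in these same libraries, so the shared order is no separate result. Closest to Cdkn1c were Twf2, Hyal2 and Gngt2 (0.07 each, median over genes 0.24), and closest to Cdkn2d were Qars, Irf9 and Lmo1 (0.05, 0.08 and 0.08, median over genes 0.26).

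Cdkn1a is a target of p53, and some of the other p53 targets were called too. Of 27 targets 24 were tested, and 11 had an unadjusted limma p under 0.05 for labelled knockout over aged. Against the aged controls, 3 were called higher in labelled knockout libraries and none lower. Among all tested genes 2.78% were called higher and 2.01% lower. The median log2 fold change of the targets was 0.08, against 0.00 over all genes. With array weights 7 were called higher, and 1 or 2 were called lower in several alternatives, 2 of them without labelled knockout 2. Plk2, a Polo-like kinase, stood at 334.74, 255.92 and 326.80 FPKM in labelled knockout libraries, against 147.03, 155.67 and 168.05 FPKM in aged controls (log2 fold change 0.95, limma adjusted p = 0.00298). Plk3, a stress-responsive kinase of the same family, averaged 38.7 ± 4.81 and 18.3 ± 3.13 FPKM in the same order (SD, n = 3 each, limma adjusted p = 0.00543), and Sesn2, a sestrin that restrains growth signalling, averaged 9.07 ± 0.48 and 4.62 ± 1.43 FPKM (limma adjusted p = 0.031). Plk2 and Plk3 passed without each library in turn, and Sesn2 did not pass without young control 2 or 3 or labelled knockout 1 or 3, nor without the filter or in the fit of the compared groups alone. Other targets, named after their values were seen, went the other way without a call. Dcxr averaged 7.17 ± 0.97 FPKM in labelled knockout libraries and 11.9 ± 2.68 FPKM in aged controls. Btg2 averaged 608 ± 112 and 796 ± 24.5 FPKM, and Pmaip1 20.2 ± 6.61 and 29.2 ± 5.71 FPKM (SD, n = 3 each).

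With age, 11 of the 24 tested p53 targets had an unadjusted limma p under 0.05 (median log2 fold change -0.22, against -0.04 over all genes). Btg2 and Pmaip1 averaged higher in aged controls, without overlap or a call (796 ± 24.5 against 676 ± 66.1 FPKM, and 29.2 ± 5.71 against 18.9 ± 1.92 FPKM). Among all tested genes 2.8% were called lower with age and 1.2% higher. Of the p53 targets 3 were called lower and none higher. They were Plk2 (156.9 ± 10.6 FPKM in aged and 300.9 ± 3.47 FPKM in young controls, limma adjusted p = 0.00814), the DNA polymerase Polk (2.22 ± 0.257 and 3.997 ± 0.24 FPKM, adjusted p = 0.0303) and Mdm2, the ubiquitin ligase that degrades p53 (13.8 ± 1.11 and 21.3 ± 1.05 FPKM, adjusted p = 0.0491; SD, n = 3 each). The count was 0 without young control 1 or 3, 1 without young control 2 or aged control 3, and 5 without labelled knockout 1 or 2. It was 1 without the filter, 5 with voom and 8 with array weights. Mdm2 itself passed in 2 of the 9 fits that left out a library, and not with a pseudocount of 5, without the filter or with either other scaling. Trp53, the gene of p53 itself, overlapped between the groups, at 34.07 to 36.07 FPKM in labelled knockout libraries, 29.77 to 35.96 FPKM in aged controls and 32.69 to 34.92 FPKM in young controls (limma adjusted p = 0.684 to 0.913 in the 3 comparisons). None of the 7 tested DNA damage kinases and p53 regulators was called in any comparison by limma or voom, with 1 at an unadjusted limma p under 0.05 for labelled knockout over aged and 3 for aged over young. Array weights called 1 in each of these comparisons, higher and lower in that order, and 1 was lower with age without labelled knockout 2.

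Immediate early and heat shock genes, which respond within minutes to stimuli and which cell isolation can also induce, were all tested. Against the aged controls, 10 of 29 rose in labelled knockout libraries and 2 fell (median log2 fold change 0.41, against 0.002 over all genes). Among all tested genes 2.78% were called higher and 2.01% lower. Egr2, an immediate early transcription factor, stood at 60.80, 56.44 and 57.42 FPKM in labelled knockout libraries, against 19.06, 18.21 and 19.96 FPKM in aged controls (log2 fold change 1.56, limma adjusted p = 1.4e-05). Hsph1, a heat shock co-chaperone, averaged 8.31 ± 2.02 and 2.66 ± 0.95 FPKM in that order, Nr4a2 28.2 ± 8.46 and 11.6 ± 0.31 FPKM, Myc 130.1 ± 25.0 and 61.9 ± 9.07 FPKM, Atf3 307.9 ± 24.8 and 150.8 ± 25.7 FPKM, and Fosl1 7.67 ± 1.64 and 3.83 ± 0.39 FPKM (SD, n = 3 each). The 2 that fell were Jund and, named after its values were seen, Gadd45g, with log2 fold changes of -0.58 and -0.70. Other genes of the list, also named after their values were seen, averaged lower in labelled knockout libraries without a call. Dusp1 averaged 1130 ± 122 against 1637 ± 287 FPKM in aged controls, and Klf6 96.3 ± 10.3 against 130 ± 18.2 FPKM, both without overlap. The heat shock genes Hspa1a and Hspa1b averaged 17.3 ± 2.28 against 22.6 ± 9.85 FPKM and 30.7 ± 3.08 against 36 ± 18.2 FPKM. The count of 10 lay between 8 and 10 without each library in turn, but was 5 without the filter and 6 in the fit of the compared groups alone, both of which left none of the 2 that fell. That count of 2 was 4 with array weights and dropped to 0 without labelled knockout 1 or 3 and to 1 without aged control 1 or 2.

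With age, 4 of the 29 fell, namely Nr4a2, Egr2, Myc and Atf3, and 1, Jund, rose (median log2 fold change -0.17, against -0.045 over all genes). Among all tested genes 2.8% were called lower and 1.2% higher. Egr2 averaged 19.1 ± 0.88 FPKM in aged and 41.8 ± 2.48 FPKM in young controls (SD, n = 3 each, limma adjusted p = 0.00208) and kept its call without each library in turn. The 4 fell to 1 without young control 1, 2 or 3 and to 2 without aged control 2 or 3, and were 1 without the filter and 8 with array weights. The call of Jund was lost without any young control, without aged control 2 or 3 and without labelled knockout 3, as well as without the filter. Against the young controls, none of the p53 targets, immediate early genes or senescence-associated genes was called in labelled knockout libraries by limma or voom. At an unadjusted limma p under 0.05 there were 5, 9 and 3 of them in that order. With array weights, limma called 1 p53 target higher, 7 immediate early genes higher and 1 lower, and 1 senescence-associated gene in each direction. Without aged control 3 it called 1 immediate early gene higher.

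Senescence-associated secreted and surface genes were tested for 17 of 21 members. Against the aged controls, 5 rose in labelled knockout libraries and none fell, while 2.78% of all tested genes were called higher and 2.01% lower. The median log2 fold change was 0.36, against 0.002 over all genes. The 5 genes are named next. They were the chemokine Cxcl1 (76.9 ± 15.4 FPKM in labelled knockout libraries and 18.9 ± 9.20 FPKM in aged controls, limma adjusted p = 0.00885), the growth factor binding protein Igfbp3 (81.9 ± 26.2 and 27.7 ± 12.3 FPKM, adjusted p = 0.0291), the chemokine Ccl2 (12.6 ± 2.80 and 3.87 ± 0.77 FPKM, adjusted p = 0.0175), the urokinase receptor Plaur (78.2 ± 18.3 and 41.5 ± 6.12 FPKM, adjusted p = 0.0206) and the adhesion molecule Icam1 (198.7 ± 21.2 and 112.0 ± 16.2 FPKM, adjusted p = 0.00666; SD, n = 3 each). Cxcl1, Ccl2 and Icam1 are also known targets of the inflammatory factor NF-kB. The count was 2 without labelled knockout 1 and 3 without labelled knockout 3, and it was 1 without the filter and 3 in the fit of the compared groups alone. Array weights also called 1 gene lower. With age, 2.8% of all tested genes were called lower and 1.2% higher. Of this list Cxcl1 and Ccl2 fell with age and none rose (median log2 fold change -0.24, against -0.045 over all genes). Neither was called without young control 1 or 3 or without labelled knockout 3. Leaving out young control 2 or any aged control left 1 of them. No gene was left without the filter and 6 were called lower with array weights, while 1 was called higher with array weights, with median-ratio scaling or without aged control 1.

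None of the 3 genes known to be lost in senescence was called in any comparison by limma or voom, with 1 at an unadjusted limma p under 0.05, Lmnb1 for labelled knockout over aged. The chromatin protein genes Hmgb1 and Hmgb2 averaged 95.6 ± 3.43 and 32.8 ± 3.54 FPKM in labelled knockout libraries, 97.3 ± 11.9 and 32.8 ± 6.32 FPKM in aged controls and 96.7 ± 2.37 and 35.5 ± 2.91 FPKM in young controls (SD, n = 3 each). The nuclear lamina gene Lmnb1, named after its values were seen, stood at 4.06, 4.76 and 6.09 FPKM in labelled knockout libraries, 0.76, 4.04 and 3.25 FPKM in aged controls and 4.86, 4.33 and 4.18 FPKM in young controls. Each aged control lay below every other library for Lmnb1, aged control 1 by far the most, and the differences did not pass (limma adjusted p = 0.167 for labelled knockout over aged and 0.198 for aged over young).

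**Figure D4:**
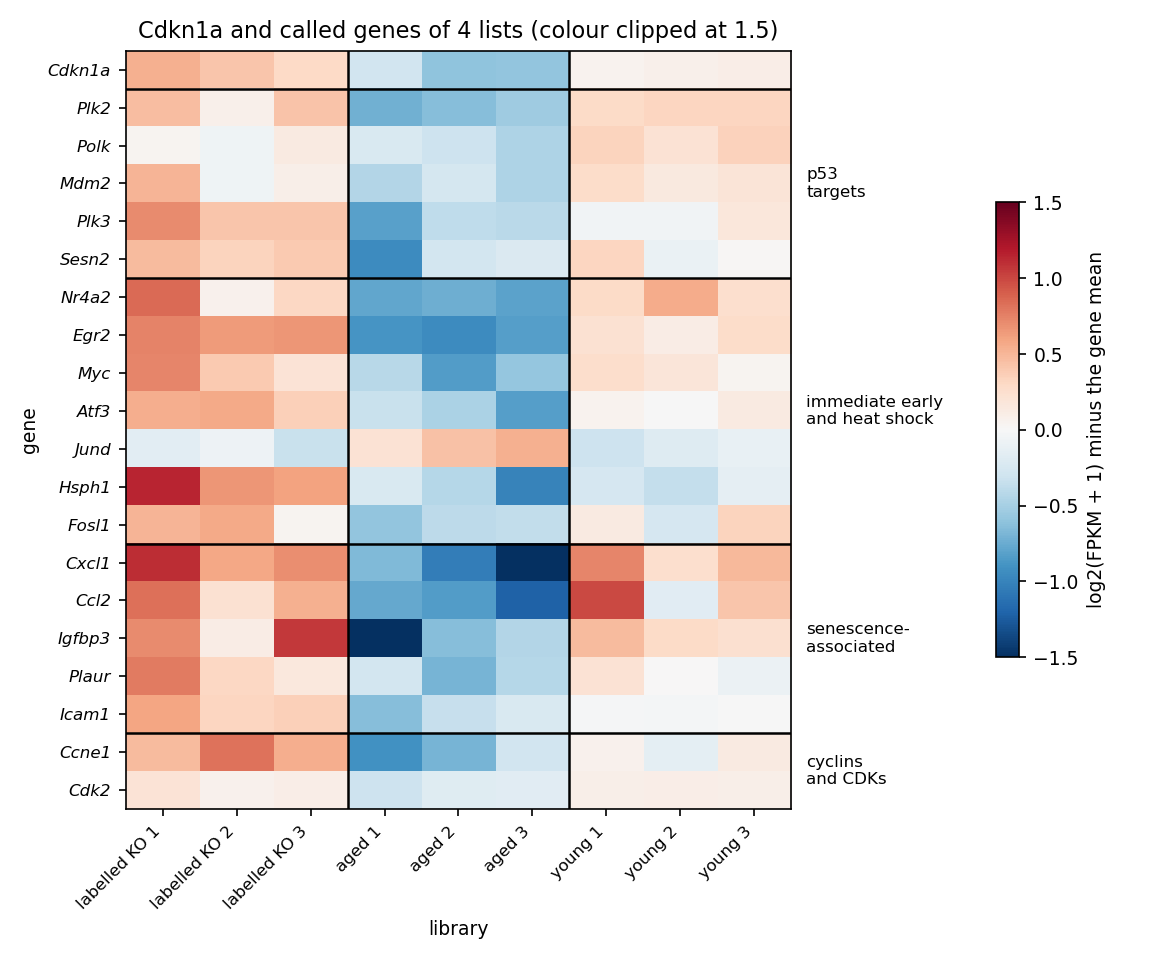
Log2(FPKM + 1) minus each gene's mean over 9 libraries, with colour clipped at 1.5, for Cdkn1a and for called genes of 4 lists, up to 6 of each list and comparison. Red is above and blue below the gene's mean. Cdkn1a is above its mean in the 3 libraries labelled knockout (306.82 to 361.14 FPKM) and below it in the 3 aged controls (163.64 to 203.12 FPKM), and Jund runs the other way.

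The kinases and cyclins that these inhibitors bind were tested for 11 of 12 genes. Against the aged controls, 2 rose in labelled knockout libraries, while 2.78% of all tested genes were called higher. Ccne1, the G1/S cyclin whose complex with Cdk2 is bound by p21 and p27, stood at 3.98, 5.28 and 4.23 FPKM in labelled knockout libraries, against 0.90, 1.21 and 1.94 FPKM in aged controls (log2 fold change 1.24, limma adjusted p = 0.00643). Its mean in labelled knockout libraries was 3.33 times that in aged controls. Cdk2 averaged 19.5 ± 1.03 and 15.1 ± 0.91 FPKM in that order (SD, n = 3 each, adjusted p = 0.0494), and the call held in 1 of the 9 fits that left out a library, the one without labelled knockout 2. Cdk2 was also not called in 6 of 11 other settings, among them no filter, either other scaling, the compared groups alone and robust eBayes. Array weights called 5 genes of this list higher. With age none was called by limma or voom, and 4 had an unadjusted limma p under 0.05, while array weights called 3 lower and the filter at 5 FPKM 1. Cdk4, the INK4 partner, averaged 51.9 ± 4.21 FPKM in aged and 43.8 ± 2.60 FPKM in young controls (limma adjusted p = 0.144).

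Downstream of the kinases, 9 of 11 retinoblastoma and E2F family genes were tested and none was called in any comparison by limma or voom. With age 6 of the 9 had an unadjusted limma p under 0.05. The median log2 fold change with age was -0.31, against -0.045 over all genes. For labelled knockout over aged 2 of 9 had such a p, and the median was 0.16, against 0.002 over all genes. The share of all genes at that p was not computed. Array weights called 3 lower with age, and 1 was called without labelled knockout 2. Of 17 proliferation genes 11 were tested. None was called between labelled knockout libraries and the aged controls, and with age 1 fell, the replication helicase subunit Mcm4 (9.41 ± 0.26 FPKM in aged and 13.8 ± 1.39 FPKM in young controls, SD, n = 3 each, limma adjusted p = 0.0363). Of the fits that left out a library, Mcm4 passed only in those without labelled knockout 1 or 2, and it did not pass without the filter. Array weights called 4 genes of the list lower with age. In the main fit 2.8% of all tested genes were called lower with age. The other 6 lay below the filter, among them Mki67, the proliferation antigen, at 0.08 to 0.38 FPKM in labelled knockout libraries, 0.13 to 0.19 FPKM in aged controls and 0.27 to 0.34 FPKM in young controls.

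Regulators of the remaining members gave no calls by limma with equal weights over all libraries, or by voom. None of 9 tested genes of p27 turnover and the FOXO family, which control Cdkn1b, was called in any comparison, with median log2 fold changes of 0.12 for labelled knockout over aged and -0.06 for aged over young, and 0 and 2 genes at an unadjusted limma p under 0.05. None of 13 tested regulators of the INK4 locus was called, the Polycomb gene Bmi1 and the transcription factor gene Ets1 among them (medians 0.18 and -0.18, with 4 and 3 genes at an unadjusted limma p under 0.05). Over all tested genes the medians were 0.002 and -0.045. In the imprinted domain around Cdkn1c, 3 of 9 genes were tested and none was called, with 2 at an unadjusted limma p under 0.05 in each of these comparisons. With array weights, limma called 2 genes of p27 turnover lower with age, 3 INK4 regulators higher for labelled knockout over aged and 3 lower for aged over young, and 1 gene of the imprinted domain lower and 1 higher in those comparisons. Without labelled knockout 2, 1 INK4 regulator was called in each of them, and 1 was also lower with age in the fit of the compared groups alone. In the imprinted domain 1 gene was lower in labelled knockout than in aged libraries without labelled knockout 2 or 3. Kcnq1 averaged 9.56 ± 2.33 FPKM in labelled knockout libraries, 13.4 ± 1.63 FPKM in aged controls and 9.74 ± 0.48 FPKM in young controls (SD, n = 3 each).

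**Figure D5:**
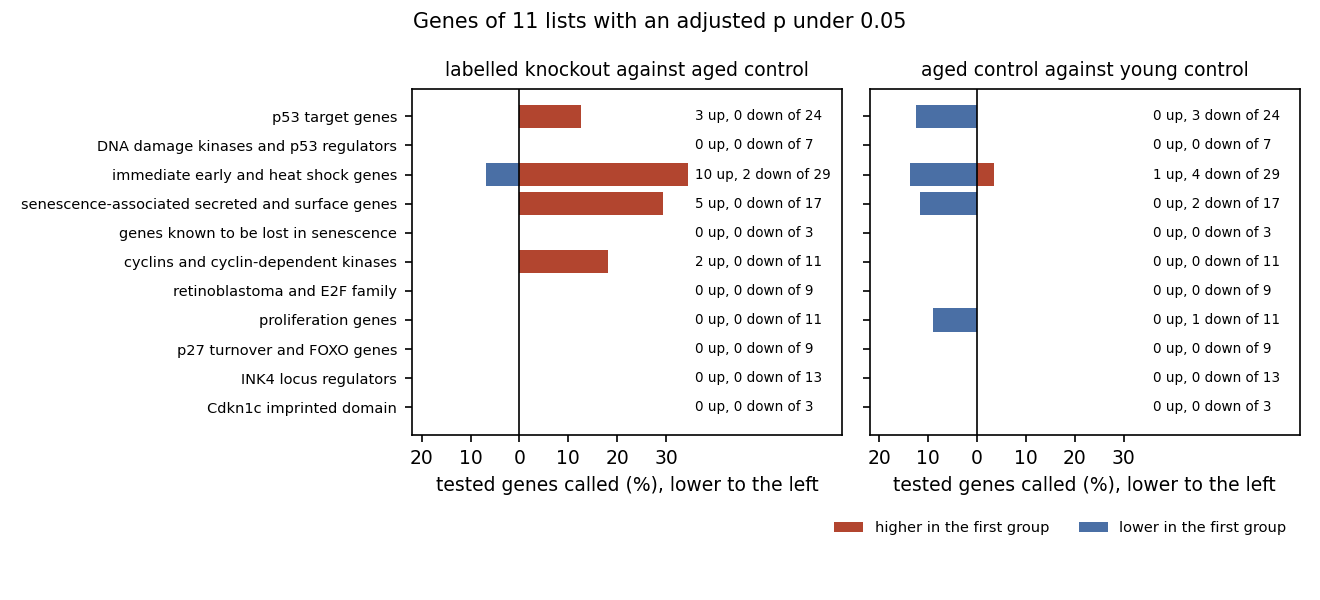
Share of tested genes called (adjusted p under 0.05) in each of 11 gene lists, higher to the right and lower to the left, for labelled knockout against aged and aged against young controls. The immediate early and heat shock list has the most calls, 10 higher and 2 lower of 29 against the aged controls, and 6 of the lists have none in either panel. Over all tested genes the shares were 2.78% higher and 2.01% lower against the aged controls, and 1.2% higher and 2.8% lower with age.

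Transcripts used as markers of other marrow cells differed between libraries. Bulk values do not show which cells they came from, endothelial cells included. The 8 markers of marrow stroma, osteoblasts and fat cells summed to 37.2 to 49.4 FPKM in labelled knockout libraries and 42.4 to 49.98 FPKM in aged controls. In young controls they summed to 80.2 to 109.3 FPKM, of which Cxcl12 alone gave 47.15, 49.15 and 41.94 FPKM. Of the 5 tested, Adipoq, Ibsp, Cxcl12 and Kitl fell with age, while 2.8% of all tested genes were called lower. Adipoq and Ibsp each kept this call in 7 of the 9 fits that left out a library, Cxcl12 in 4 and Kitl in 2. Without the filter Ibsp, Cxcl12 and Kitl lost it, and Kitl also with either other scaling. Against the young controls, Adipoq, an adipocyte hormone gene, and Cxcl12, a chemokine gene, were lower in labelled knockout libraries (log2 fold change -1.57 and -1.06, limma adjusted p = 0.00044 and 0.0115). Among all tested genes 0.127% were called lower in this comparison. Against the aged controls Adipoq was lower too (-0.55, limma adjusted p = 0.0389). This call was kept in 5 of 11 other settings, not with voom, and in 1 of 9 fits that left out a library. Cxcl12 and Lepr had lower means without a call, while Ibsp and Kitl went the other way, also without a call. Ibsp averaged 9.38 ± 1.48 FPKM in labelled knockout libraries and 4.19 ± 0.47 FPKM in aged controls, and Kitl 3.17 ± 0.97 and 1.73 ± 0.29 FPKM (SD, n = 3 each). The median log2 fold change of the 5 tested was -0.13. The 5 smooth muscle and pericyte markers summed to 1.42 to 8.32 FPKM in labelled knockout libraries, 3.58 to 7.78 FPKM in aged controls and 10.8 to 14.5 FPKM in young controls, so both groups aged 18 months lay below the young one. Neither of the 2 tested was called, and both had an unadjusted limma p under 0.05 against the young controls in each group. The 8 B-lineage and plasma cell markers summed to 4.6 to 1787 FPKM in labelled knockout libraries, 477.9 to 3018 FPKM in aged controls and 6.15 to 517.2 FPKM in young controls, with none of 5 called. With age the median log2 fold change of these 5 was 3.56, and 4 had an unadjusted limma p under 0.05. For labelled knockout over aged the median was -2.50, and 1 had such a p. The 8 monocyte and macrophage markers summed to 26.6 to 65.2 FPKM in labelled knockout libraries, 59.0 to 79.2 FPKM in aged and 37.8 to 92.6 FPKM in young controls. None of 5 was called, with medians of -0.90 for labelled knockout over aged and 0.56 with age. The 6 erythroid markers summed to 44.5 to 179.8, 53.8 to 183.5 and 113.1 to 117.7 FPKM in that group order, with none of 5 called. The T cell gene Cd3e was at 0 to 0.04 FPKM. The part of all these transcripts in the differences of Cdkn1a was not tested.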

How the data were processed

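The authors deposited FPKM values rounded to 2 decimals, 1 column per library. Per the labels' protocols, SMART-Seq amplification preceded library construction. The submitters' processing notes name FastQC 0.11.5, STAR, edgeR, GRCm38 and mm10. How reads were counted, and by which strand, is not stated there, so overlapping genes are uncertain. All 52183 gene identifiers matched GENCODE M21, which gave positions and exon lengths. Depth was recovered from genes of 60 to 400 bases, whose low values were whole multiples of 1 fragment within 0.1 for 99.5% to 99.8% of 978 to 1625 values per library. No pair of libraries was identical.

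Values were tested in R 4.3.3 with limma 3.58.1 (lmFit with a mean per group over all 9 libraries, eBayes with a trend) on log2(FPKM + 1), on the 11796 genes whose mean reached 1 FPKM, with Benjamini-Hochberg adjustment. The tests were checked on simulated data. That check covered neither changes as small as those of Cdkn1a nor genes as low as Cdkn1b, Cdkn2b and Cdkn2c. Lists are described by counts and medians. Named were the 7 members, called genes of each list up to 6 by size or else the best measured, and the 3 nearest profiles of members above 5 FPKM. The members and lists were chosen with earlier results of these data known. Figures were drawn with matplotlib 3.10.9.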

Additional observations from a re-analysis of the deposited data

How the results depend on the processing

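The alternatives changed the pseudocount (0.1 or 5), the filter (none, or a mean of 5 FPKM), the scaling (median-ratio or quantile) and the model (compared groups alone, replicate block, robust eBayes, array weights, voom on recovered fragments), or left out 1 library. Cdkn1a remained called for labelled knockout over aged in all of them (log2 fold change 0.85 to 1.02). For aged over young, Cdkn1a lost its call without the filter (-0.57, limma adjusted p = 0.111) and in 6 of the 9 fits that left out a library. Its value without each library was -0.68 to -0.52 (limma adjusted p = 0.0221 to 0.141). For labelled knockout over young it was called with array weights alone (0.28, adjusted p = 0.0477). Of 351 recomputed member values, 17 uncalled ones changed sign, and no other member was called in any. The mean of at least 5 FPKM left out Cdkn1b, Cdkn2b and Cdkn2c.

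Counts over all genes moved more. Genes higher and lower in labelled knockout over aged numbered 328 and 237, but 108 and 38 without the filter, 112 and 37 in the fit of those groups alone, 1013 and 841 with array weights, and 134 to 596 and 63 to 563 without each library. With age they numbered 141 and 330, but 6 and 33 without the filter, 236 and 195 with median-ratio scaling, 846 and 1474 with array weights, and 0 to 366 and 5 to 673 without each library; the fit of those groups alone gave 258 higher and quantile normalization 199 lower. In labelled knockout over young they numbered 10 and 15, but 5 and 7 with a mean of at least 5 FPKM, 227 and 394 with array weights, 7 lower without the filter, and 7 to 13 and 4 to 18 without each library. Same-numbered libraries share only a number (correlations of their deviations -0.129 to 0.124); with the replicate block the counts were 52 higher and 131 lower with age and 156 lower in labelled knockout over aged, and no call of a member changed. Under it Sesn2, Fosl1, Cdk2, Adipoq and Cdkn2aip were not called in labelled knockout over aged. Polk, Mdm2, Jund, Atf3, Mcm4, Erg and Cxcl12 were not called with age under it, and 1 p53 target was called lower with age. Of 1320 list counts, 1209 stayed within 1.5 times. The causes were not tested. Depth limits Cdkn2a, at 0 to 10 fragments.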

Other observations

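Genes with related names, chosen after their values were seen, did not all follow the same course. Cdkn2aip, which encodes a protein that binds Arf, had 19.55, 18.72 and 21.17 FPKM in labelled knockout libraries, 15.60, 12.39 and 10.45 FPKM in aged controls and 21.94, 19.70 and 23.01 FPKM in young controls. It was higher in labelled knockout than in aged libraries (limma log2 fold change 0.61 ± 0.13 SE with an adjusted p of 0.0353) and lower in aged than in young controls (-0.72 ± 0.13 SE, adjusted p = 0.0347), with no overlap in either pair. Without young control 1, 2 or 3, aged control 2 or 3, or labelled knockout 3, neither difference passed, and without labelled knockout 1 the first did not pass. Without the filter neither passed, and the first did not pass in the fit of the compared groups alone. Cdkn2aipnl, the gene of a related nuclear protein, averaged 30.1 ± 1.204 FPKM in labelled knockout libraries, 30.9 ± 2.42 FPKM in aged controls and 29.7 ± 1.68 FPKM in young controls, and Cdkn3, a phosphatase gene of the cell cycle, averaged 1.01 ± 0.56, 1.11 ± 0.38 and 1.18 ± 0.47 FPKM in that order (SD, n = 3 each). Neither passed in any comparison (limma adjusted p = 0.747 to 0.968).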
